A study of Mus musculus with 21 samples.

Results

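Glucagon and 6 further genes that mark the alpha-cells of the pancreatic islet (Gcg, Irx1, Irx2, Pou3f4, Slc7a2, Ttr and Gc) were followed in islet RNA of mice on 3 diets. The 7 genes are listed by name, with no threshold on their values, although the list was drawn up with earlier results of these data known. Their symbols were matched to the Ensembl identifiers of the count files, and all 7 were found among the 55536 genes listed there and among the 27229 that passed the filter on low counts. The samples were islets of CBA males, 7 samples per diet: a regular diet (RD), a diet high in fat (HFD), or the same fat diet with O304 mixed in at 0.8 mg per g of diet (HFD-O304). O304 is a small molecule that activates AMPK, the kinase that senses cellular energy. Diets began at 10 weeks of age and islets were isolated at 20 weeks of age, after 10 weeks of diet by the study's results text and 9 weeks by its methods. Each sample was RNA of 150 hand-picked islets from the pooled islets of 5 mice. The sources do not say whether the 7 pools of a diet held different mice, so that p-values measure the spread between these samples. All measurements are of whole islets, in which fewer cells of a type and less RNA per cell cannot be told apart.

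Alpha-cells secrete glucagon when blood glucose is low and when amino acids rise, and glucagon makes the liver release glucose. Gcg encodes the precursor from which glucagon is cut. Irx1 and Irx2 encode homeodomain transcription factors of the Iroquois family, Pou3f4 encodes a POU-domain transcription factor that binds the Gcg promoter, and in mouse islets all of these are found mainly in alpha-cells. Slc7a2 encodes a carrier of arginine and other cationic amino acids. Ttr and Gc encode transthyretin, the carrier of thyroxine and retinol-binding protein, and the vitamin D-binding protein. Both are plasma proteins made chiefly by the liver that are also abundant in alpha-cells. If a change in the share of alpha-cells were all that differed between samples, transcripts found only in these cells would move in 1 direction and their ratios to each other would stay the same, and the comparisons below were made against that picture.

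Promoter sequences from RefSeq (GRCm38.p6, 250 bases before to 50 after the start) were at hand for 4 of the 7 genes, and the 2 printed here are those of the hormone gene and of Gc, which moved in the opposite direction to it. They are given 5′ to 3′ on the strand of the gene, and capitals mark matches to TATAAA in Gcg and to GTTAAT in Gc, on either strand.
Gcg promoter, chr2:62483604-62483903, minus strand: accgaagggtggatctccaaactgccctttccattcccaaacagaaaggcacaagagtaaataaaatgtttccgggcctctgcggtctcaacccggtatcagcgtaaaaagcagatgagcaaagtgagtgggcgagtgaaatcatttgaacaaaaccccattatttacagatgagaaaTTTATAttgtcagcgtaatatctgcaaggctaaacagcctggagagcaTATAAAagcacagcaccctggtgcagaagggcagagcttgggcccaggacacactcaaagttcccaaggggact
Gc promoter, chr5:89457849-89458148, minus strand: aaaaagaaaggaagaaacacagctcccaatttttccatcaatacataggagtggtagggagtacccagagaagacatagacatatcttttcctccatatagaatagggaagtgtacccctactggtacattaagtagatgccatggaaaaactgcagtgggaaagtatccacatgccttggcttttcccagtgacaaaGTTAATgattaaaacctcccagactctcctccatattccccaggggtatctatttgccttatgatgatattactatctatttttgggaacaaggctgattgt

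The Gcg promoter held TATAAA, the core of the TATA box, beginning 24 bases before the start, and its reverse complement beginning 72 bases before it. Of 32817 promoters of this length, 13.6% held TATAAA on either strand. The Gc promoter held GTTAAT, a sequence that HNF1 factors bind, 52 bases before the start, as did 7.10% of all promoters, and no TATAAA. The E box letters CANNTG, not capitalised above, were found 3 times in Gcg and once in Gc, and in 72.3% of all promoters. Irx2 held 1 E box and Pou3f4 none, and neither held TATAAA or GTTAAT. The letters TGTTTAC (forkhead, 3.65% of all promoters), TGCTGA (Maf, 19.5%), TGACGTCA (cAMP response element, 1.79%) and TAATTA (homeodomain, 5.30%) were found in none of the 4 windows. Both strands were searched, no match to TATAAA or GTTAAT overlapped another, and such matches describe letters only.

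The genes lie on 6 chromosomes (GRCm38, positions of the GENCODE annotation), all protein-coding. Gcg is at chr2:62474530-62483650 on the minus strand with 7 merged exons, and Gc at chr5:89417522-89457898 on the minus strand with 14. Irx1 (chr13:71957921-71963723, minus strand) and Irx2 (chr13:72628820-72634198, plus strand) are neighbours in the same Iroquois cluster, 665096 bases apart. Slc7a2 is at chr8:40862396-40922308 on the plus strand with 15 merged exons, Ttr is on chromosome 18, and Pou3f4 (chrX:110814280-110817207, plus strand) has a single exon. Slc7a2 was the only gene of the 7 that overlaps another gene, the lincRNA Gm26584 on the other strand. The counts used are those of the strand of each gene. Reads on the opposite strand came to 0.0252% (Ttr) to 2.41% (Pou3f4) of the counts of both strands together. 

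Read pairs on genes ranged from 13809266 to 48922569 per sample (median 38719302), and the shallowest sample was HFD-O304 replicate 2. Replicates 1 to 4 and replicates 5 to 7 carry library numbers of different sets, a division present in every group, so results are also given within each set. In replicates 1 to 4 the numbers run diet by diet, so that library order and diet cannot be told apart there. In replicates 5 to 7 the numbers alternate between the diets. HFD-O304 replicate 1 carries the diet tag HFD in the labels and HFD-O304 in its title, and it was taken by its title. In all 7 genes this sample lay outside the range of the 7 HFD samples, which is a check of the label on the genes reported here and no independent evidence for them. 

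The 7 genes spanned a wide range of levels. Per kb of exon, the mean level in RD islets was 569936 normalized counts for Gcg, 37989 for Ttr, 2268 for Gc, 1903 for Slc7a2, 97.3 for Irx2, 71.8 for Irx1 and 17.8 for Pou3f4. Normalized counts are read pairs divided by a size factor per sample. By this measure Gcg was rank 4 and Ttr rank 18 of all 27229 genes in RD islets, while the transcription factors were at ranks 8994 (Irx2), 10114 (Irx1) and 14472 (Pou3f4). Neighbours in this order overlapped between their samples, per kb, for Gc and Slc7a2 (1941 to 2790 and 1700 to 2062) and for Irx2 and Irx1 (73.2 to 111.1 and 39.9 to 107.99), and the other neighbours did not. The same order of the means held in HFD and HFD-O304 islets except that Slc7a2 (2137) stood above Gc (1581) in HFD-O304 islets, per kb.

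**Figure D1:**
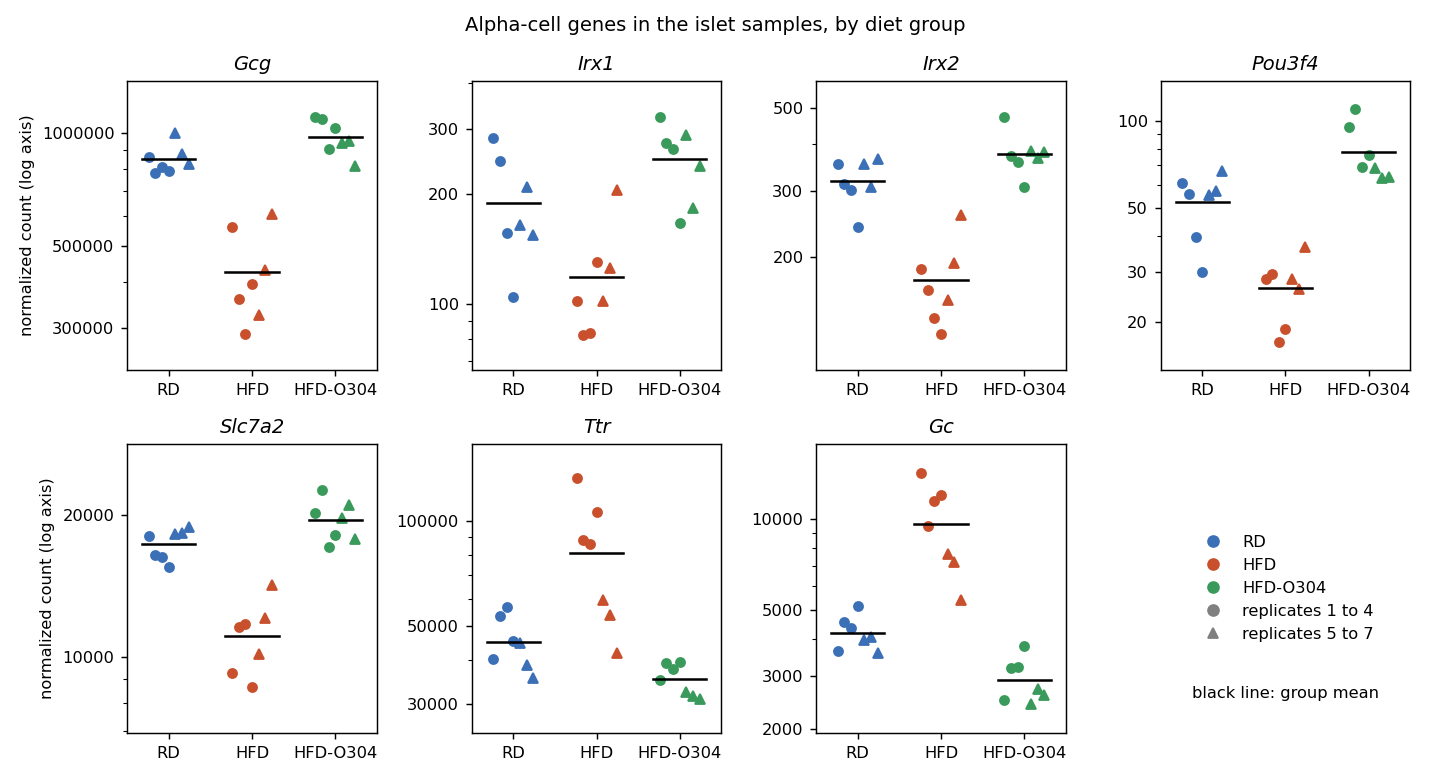
Normalized counts (log axis) of the 7 genes in each of the 21 samples, by diet group. Each point is a sample, circles are replicates 1 to 4 and triangles replicates 5 to 7, and the black line is the group mean. HFD samples lie low for Gcg, Irx1, Irx2, Pou3f4 and Slc7a2 and high for Ttr and Gc, and HFD replicate 7, the last triangle, is the HFD sample nearest to the RD mean in every panel.

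The first comparison, HFD vs RD islets, asked what a high-fat diet did to alpha-cell transcripts. The hormone transcript and 3 of the other genes fell, while Ttr and Gc rose. At an adjusted p under 0.01, 6 of the 7 genes passed, 4 lower and 2 higher in HFD islets, where 3.54% of all genes tested passed (2.00% higher and 1.54% lower). Their median log2 fold change was -0.67, beside -0.00 over all genes tested. 

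Gcg ranged from 783179 to 1002458 normalized counts in RD samples (median 827967) and from 289699 to 608460 in HFD samples (median 395565). The groups did not overlap. The log2 fold change was -1.01 ± 0.12 (SE, n = 7 and 7; edgeR's quasi-likelihood test, adjusted p = 7.27e-06), and Gcg took 2.35% ± 0.25 (SD, n = 7) of the read pairs on genes in RD islets and 1.13% ± 0.31 in HFD islets. 

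Of the transcription factors, Irx2 went from 240 to 364 normalized counts in RD samples (median 313) to 125 to 259 in HFD samples (median 164). Only HFD replicate 7 reached into the RD range. The log2 fold change was -0.88 ± 0.13 (edgeR, adjusted p = 9.38e-05). Pou3f4, a weakly expressed gene, had 29.9 to 67.0 normalized counts in RD samples (median 55.5) and 17.1 to 36.5 in HFD samples (median 28.3). The ranges overlapped between RD replicate 4 and HFD replicate 7 alone, and the log2 fold change was -0.98 ± 0.19 (edgeR, adjusted p = 0.00184). Irx1 had 104.6 to 283 normalized counts in RD samples (median 164) and 82.4 to 204 in HFD samples (median 101.996). Its ranges overlapped widely, and its log2 fold change of -0.67 ± 0.21 did not pass (edgeR, adjusted p = 0.0440). Without HFD replicate 7 it was -0.86 ± 0.19 and passed (adjusted p = 0.00366), so that 7 of 7 genes then passed.

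The amino acid carrier Slc7a2 had 15527 to 18838 normalized counts in RD samples (median 18091) and 8654 to 14200 in HFD samples (median 11622). No HFD sample reached the RD range, and the log2 fold change was -0.65 ± 0.09 (edgeR, adjusted p = 3.45e-05).

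The plasma carriers went the other way. Ttr had 35522 to 56720 normalized counts in RD samples (median 44855) and 41915 to 133154 in HFD samples (median 86257). The HFD samples were spread widely and 2 of them, replicates 6 and 7, lay within the RD range. The log2 fold change was 0.84 ± 0.17 (edgeR, adjusted p = 0.00192). Gc had 3581 to 5148 normalized counts in RD samples (median 4059) and 5371 to 14254 in HFD samples (median 9501). The groups did not overlap, and the log2 fold change was 1.20 ± 0.15 (edgeR, adjusted p = 1.88e-05). In all, 3 of the 7 genes (Gcg, Slc7a2 and Gc) had no overlap between HFD and RD samples, as did 1.35% of all genes tested.

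The HFD difference in the plasma carriers and in Irx1 was estimated as larger in replicates 1 to 4, where library order followed diet. The difference between the library sets did not pass the adjusted test. In HFD islets, Ttr averaged 103427 normalized counts in replicates 1 to 4 and 51682 in replicates 5 to 7, and Gc averaged 11816 and 6740. In RD islets the corresponding means were 49043 and 39737 for Ttr and 4419 and 3870 for Gc. In replicates 1 to 4 alone, the log2 fold change of Ttr was 1.07 ± 0.12 (edgeR, adjusted p = 6.00e-05), and in replicates 5 to 7 alone it was 0.38 ± 0.10 (adjusted p = 0.0352). For Gc these were 1.41 ± 0.14 (edgeR, adjusted p = 1.29e-05) and 0.80 ± 0.10 (adjusted p = 0.00242). The difference between the sets was -0.69 ± 0.18 for Ttr (edgeR interaction term, unadjusted p = 0.000719, adjusted p = 0.452) and -0.61 ± 0.19 for Gc (unadjusted p = 0.00366, adjusted p = 0.647), and the interaction passed for 0 genes at an adjusted p under 0.01 and for 1862 at an unadjusted p under 0.05. The log2 fold change of Irx1 was -0.99 ± 0.27 in replicates 1 to 4 and -0.28 ± 0.23 in replicates 5 to 7 (edgeR, adjusted p = 0.0387 and 0.546). Its difference between the sets was 0.72 ± 0.40 (edgeR interaction term, unadjusted p = 0.0842, adjusted p = 0.749). Gcg differed little between the sets, with -1.02 ± 0.13 in replicates 1 to 4 and -0.99 ± 0.15 in replicates 5 to 7 (edgeR, adjusted p = 0.000170 and 0.00263). Pou3f4 kept its size but not its call within the sets, with -0.99 (adjusted p = 0.0426) and -0.97 (adjusted p = 0.0155). In total 5 of the 7 genes passed within replicates 1 to 4 and 4 within replicates 5 to 7.

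The second comparison, HFD-O304 vs RD islets, asked how far islets of O304-treated mice on the same fat diet differed from those on regular diet. None of the 7 genes passed an adjusted p under 0.01, by edgeR or by DESeq2, where 1.31% of all genes tested passed by edgeR. The unadjusted p was under 0.05 for 3 of the 7, Ttr, Gc and Pou3f4, as it was for 14.4% of all genes tested.

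HFD-O304 samples had 818262 to 1103657 normalized counts of Gcg (median 952011), from within the RD range to above it. The log2 fold change was 0.20 ± 0.11, with a 95% interval from -0.04 to 0.44 (edgeR, adjusted p = 0.453). It was 0.34 ± 0.13 in replicates 1 to 4 and 0.0049 ± 0.14 in replicates 5 to 7 (edgeR, adjusted p = 0.304 and 0.993). The share of Gcg in the read pairs on genes was 2.79% ± 0.27 (SD, n = 7). Irx1 (0.40 ± 0.20), Irx2 (0.24 ± 0.12) and Slc7a2 (0.17 ± 0.09) had positive log2 fold changes of less than 2 standard errors. HFD-O304 samples held 167 to 325 normalized counts of Irx1 (median 264), 308 to 471 of Irx2 (median 371) and 17085 to 22639 of Slc7a2 (median 19698).

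Pou3f4, Gc and Ttr were the 3 with an unadjusted p under 0.05. Pou3f4 had 63.3 to 110 normalized counts in HFD-O304 samples (median 69.3), and its log2 fold change of 0.56 ± 0.18 did not pass (edgeR, adjusted p = 0.0966). It was 0.88 ± 0.25 in replicates 1 to 4, where library order followed diet, and 0.13 ± 0.19 in replicates 5 to 7 (edgeR, adjusted p = 0.116 and 0.819). The difference between the sets was -0.75 ± 0.33 (edgeR interaction term, unadjusted p = 0.0303, adjusted p = 0.854). Gc had 2429 to 3772 normalized counts (median 2711), and its log2 fold change of -0.52 ± 0.15 did not pass either (adjusted p = 0.0564). Gc was called when only these 2 groups were fitted (-0.53 ± 0.10, edgeR, adjusted p = 0.00259) and within replicates 5 to 7 (-0.58 ± 0.10, adjusted p = 0.00544). Ttr had 30976 to 39415 normalized counts (median 35164) and a log2 fold change of -0.35 ± 0.17 (adjusted p = 0.327). The range of each of the 7 genes in HFD-O304 samples overlapped that in RD samples, where 1.56% of all genes had no overlap.

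The third comparison, HFD-O304 vs HFD islets, asked what O304 changed in mice on the fat diet. All 7 genes passed, 5 higher (Gcg, Irx1, Irx2, Pou3f4 and Slc7a2) and 2 lower (Ttr and Gc) in HFD-O304 islets, where 11.9% of all genes tested passed (5.08% higher and 6.79% lower). The median log2 fold change of the 7 was 1.06, beside 0.03 over all genes tested. This comparison shares its HFD samples with the first and its HFD-O304 samples with the second, so that the directions are not separate evidence. 

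Gcg was higher by 1.21 ± 0.12 on the log2 scale (edgeR, adjusted p = 2.55e-08), a ratio of group means of 2.31. The log2 fold change was 1.54 ± 0.19 for Pou3f4 (edgeR, adjusted p = 1.32e-06), 1.12 ± 0.13 for Irx2 (adjusted p = 3.78e-07), 1.06 ± 0.21 for Irx1 (adjusted p = 0.000370) and 0.82 ± 0.09 for Slc7a2 (adjusted p = 1.28e-07). Of these 5, the estimate of Pou3f4 was the highest and that of Slc7a2 the lowest, and the difference between genes was not tested on this scale. Gc was lower, with -1.72 ± 0.15 (edgeR, adjusted p = 8.45e-09), and so was Ttr, with -1.20 ± 0.17 (adjusted p = 7.72e-06). Of the 7 genes, 6 had no overlap between HFD-O304 and HFD samples, as did 6.17% of all genes tested, and the exception was Irx1, whose HFD replicate 7 (204 normalized counts) lay within the HFD-O304 range. Within replicates 1 to 4 all 7 passed, and within replicates 5 to 7 all but Irx1 (0.71 ± 0.22, edgeR, adjusted p = 0.0486).

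**Figure D2:**
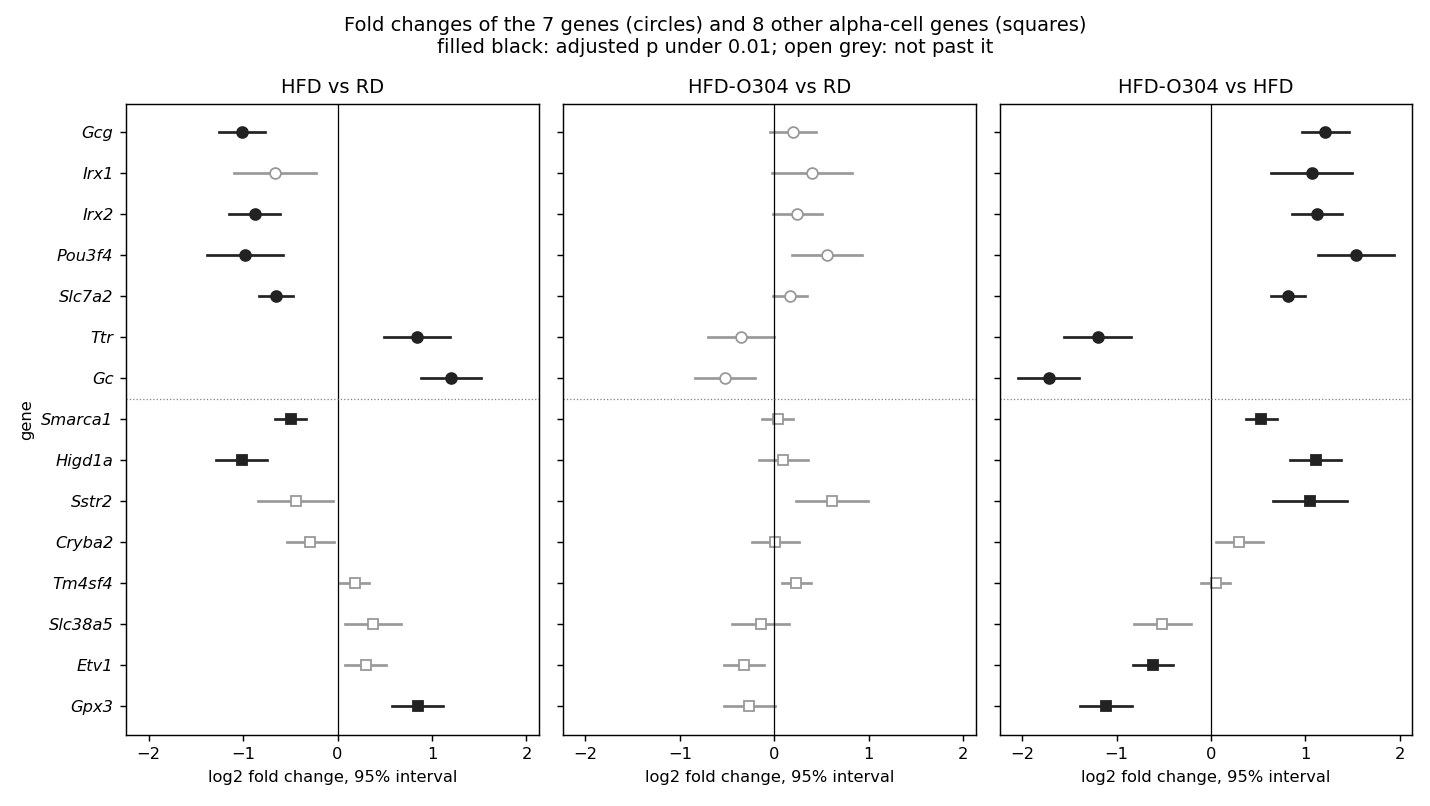
Log2 fold changes (edgeR, with 95% intervals) of the 7 genes (circles) and 8 other alpha-cell genes (squares) in the 3 comparisons. Filled black symbols passed an adjusted p under 0.01 and open grey ones did not. In the left panel 4 circles lie below and 2 above 0 past the threshold, no symbol in the middle panel is filled, and all 7 circles in the right panel are, with Ttr and Gc left of 0.

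Other genes linked to alpha-cells were examined next. In a list of 10, 4 were lower and 1 higher under HFD as compared to RD, and their median log2 fold change was -0.36. Among those lower were the chromatin remodelling ATPase Smarca1 (-0.50 ± 0.08, edgeR, adjusted p = 0.000241) and the mitochondrial protein gene Higd1a (-1.01 ± 0.13, adjusted p = 1.97e-05). The 1 higher was Gpx3, a secreted glutathione peroxidase (0.85 ± 0.13, adjusted p = 0.000170). None of the 10 passed by edgeR in HFD-O304 vs RD islets. In HFD-O304 vs HFD islets 5 were higher and 2 lower (median 0.41). Higd1a (1.11 ± 0.13, edgeR, adjusted p = 5.17e-07), Sstr2 and Smarca1 were among those higher, and Gpx3 was lower (-1.11 ± 0.13, adjusted p = 6.07e-07), as was the ETS factor gene Etv1. The summed level of the 10 genes, which includes the abundant Gpx3 (a mean of 31761 normalized counts over all 21 samples), was 42798 to 49212 in RD, 49563 to 87062 in HFD and 39785 to 49800 in HFD-O304 samples, highest in HFD samples although more of the genes were called lower there.

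Transcription factors that act on Gcg but are shared with other islet cells were a separate list. Of 9 (Pax6, Isl1, Foxa1, Foxa2, Maf, Nkx2-2, Neurod1, Rfx6 and Creb1), none passed by edgeR against RD in HFD or HFD-O304 islets. Isl1 was near the threshold, with -0.21 ± 0.05 in HFD (edgeR, adjusted p = 0.0120) and 0.22 ± 0.05 in HFD-O304 islets (adjusted p = 0.0201). By DESeq2 it passed in both (adjusted p = 0.000997 and 0.00103). Neurod1 passed by DESeq2 as higher in HFD-O304 islets (adjusted p = 0.00704). As compared to HFD, 3 of the 9 were higher in HFD-O304 islets by edgeR and none lower, Isl1 (0.43 ± 0.05, edgeR, adjusted p = 1.40e-06), Neurod1 (0.40 ± 0.06, adjusted p = 1.95e-05) and Foxa2 (0.31 ± 0.08, adjusted p = 0.00957).

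A further list held 12 genes linked to proglucagon processing and its peptides, with 2 receptors of other hormones (Gipr and Sstr3) among them. By edgeR 1 of the 12 passed in each comparison with RD and 5 passed between HFD-O304 and HFD islets. In HFD vs RD islets 1 of 12 was higher and none lower: Scg5, the chaperone of prohormone convertase 2 (0.25 ± 0.06, edgeR, adjusted p = 0.00996). That convertase itself, Pcsk2, which cuts proglucagon to glucagon, had a log2 fold change of 0.03 ± 0.07, with a 95% interval from -0.12 to 0.17. In HFD-O304 vs RD islets 1 was higher, Dpp4, the peptidase that inactivates GLP-1 (0.32 ± 0.05, adjusted p = 0.000446). As compared to HFD, 3 were higher in HFD-O304 islets, Dpp4 (0.44 ± 0.05, edgeR, adjusted p = 6.82e-07) and the incretin receptors Glp1r (0.58 ± 0.09, adjusted p = 1.62e-05) and Gipr (0.81 ± 0.14, adjusted p = 0.000103), and 2 were lower, Scg5 and the amidating enzyme gene Pam (-0.71 ± 0.10, adjusted p = 5.80e-06). In HFD vs RD islets Pam passed as higher by DESeq2 alone (adjusted p = 0.00396).

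Slc7a2 was compared with 11 other genes of amino acid transport and sensing. In HFD vs RD islets 1 of these, the neutral amino acid exchanger Slc7a8, was lower (-0.25 ± 0.06, edgeR, adjusted p = 0.00752). The glutamine and neutral amino acid carrier Slc1a5 was lower in HFD-O304 islets, by -0.65 ± 0.13 against RD (edgeR, adjusted p = 0.00312) and -1.08 ± 0.13 against HFD islets (adjusted p = 6.47e-07). It was the only one of the 11 called in these comparisons, and its direction in HFD-O304 vs HFD islets was opposite to that of Slc7a2. In HFD vs RD islets Slc1a5 passed as higher by DESeq2 alone (adjusted p = 0.00843).

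To see whether the 7 genes moved together within a sample, the log2 ratio of each to Gcg was taken in every sample, at 1 count added to both, and compared between groups by exact permutation tests over all splits of 7 and 7 samples, two-sided, with Benjamini-Hochberg adjustment over 18 comparisons. Apart from the 1 count added, a ratio within a sample does not depend on how samples were scaled. The ratios of Ttr and Gc to Gcg differed in all 3 comparisons, and those of Irx1, Irx2, Pou3f4 and Slc7a2 did not pass in any. The fold changes of Ttr and Gc had the opposite sign to that of Gcg, so these ratios restate them and are not separate evidence. A gene with no fold change would also shift against Gcg, which itself moved by -1.01 in HFD vs RD islets. The share of all genes whose ratio to Gcg differed was not computed.

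The log2 ratio of Gc to Gcg ran from -7.98 to -7.27 in RD samples (median -7.76), from -6.82 to -4.66 in HFD samples (median -5.30) and from -8.79 to -8.10 in HFD-O304 samples (median -8.42). No pair of groups overlapped. HFD exceeded RD by 2.19 ± 0.28 (SE; exact permutation p = 0.000583, adjusted p = 0.00210), and HFD-O304 was below RD by a difference of -0.73 ± 0.14 and below HFD by one of -2.92 ± 0.28, each with the same exact p, the smallest that this design allows. The ratio of Ttr to Gcg ran from -4.54 to -3.84 in RD samples (median -4.41), from -3.86 to -1.75 in HFD samples (median -2.07) and from -4.97 to -4.58 in HFD-O304 samples (median -4.80). Only HFD replicate 7 (-3.86) reached into the RD range. HFD exceeded RD by 1.82 ± 0.31 (exact permutation p = 0.00117, adjusted p = 0.00350), and HFD-O304 differed from RD by -0.54 ± 0.13 and from HFD by -2.36 ± 0.29 (exact permutation p = 0.000583, adjusted p = 0.00210 for both).

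The ratios of the other 4 genes to Gcg moved by less than 0.5 on the log2 scale. In HFD vs RD islets the difference was 0.15 ± 0.11 for Irx2 (exact permutation, adjusted p = 0.315), 0.10 ± 0.18 for Pou3f4 (adjusted p = 0.652), 0.39 ± 0.22 for Irx1 (adjusted p = 0.176) and 0.39 ± 0.17 for Slc7a2 (adjusted p = 0.0793). Between HFD-O304 and HFD islets it was -0.10 ± 0.12 for Irx2 (exact permutation, adjusted p = 0.491), 0.29 ± 0.14 for Pou3f4 (adjusted p = 0.113), -0.15 ± 0.18 for Irx1 (adjusted p = 0.491) and -0.42 ± 0.17 for Slc7a2 (adjusted p = 0.0682). In HFD-O304 vs RD islets, Pou3f4 to Gcg differed by 0.39 ± 0.16 (exact permutation, adjusted p = 0.0659). These p-values do not show that the ratios were equal. Leaving out HFD replicate 1, the sample with the lowest HFD ratio of Slc7a2 to Gcg (-5.92), moved the Slc7a2 difference to 0.50 ± 0.14 against RD and to -0.54 ± 0.14 between HFD-O304 and HFD islets, and both then passed (exact permutation, adjusted p = 0.00262). Pou3f4 to Gcg passed in HFD-O304 vs RD islets without RD replicate 7 (0.46 ± 0.16, exact permutation, adjusted p = 0.00899) and in HFD-O304 vs HFD islets without HFD replicate 5 (0.37 ± 0.13, adjusted p = 0.0405). 

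**Figure D3:**
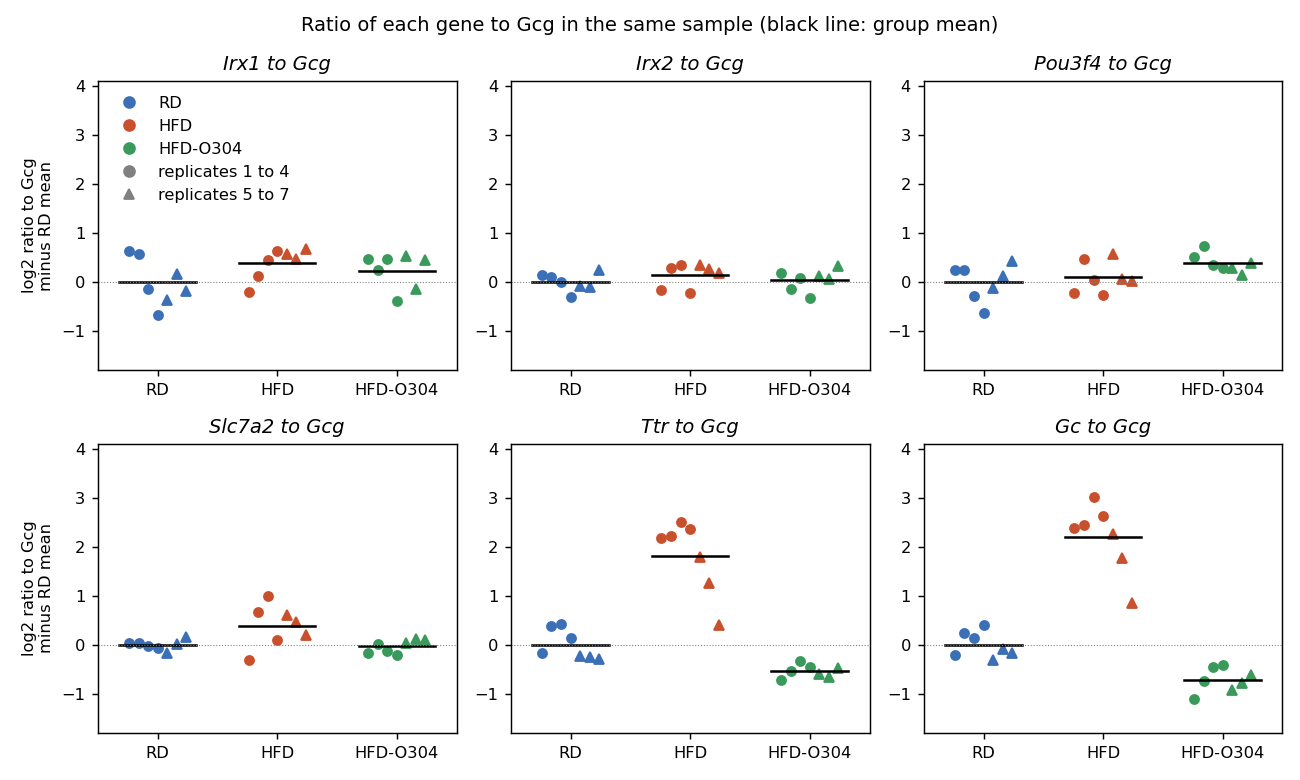
Log2 ratio of each gene to Gcg in the same sample, with the mean of the RD samples set to 0, by diet group and library set. Points are samples and black lines group means. The HFD means of Ttr and Gc stand 1.82 and 2.19 above RD and the HFD-O304 means 0.54 and 0.73 below it (the log2 differences -0.54 and -0.73), while the means of the other 4 genes stay within 0.39 of RD.

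Within the groups, the samples were compared by their deviations from the group mean on the log2 scale, which removes the differences between diet means. It does not even out the spread. The coefficient of variation of Gcg was 28.1% in HFD samples, beside 8.85% in RD and 10.6% in HFD-O304 samples. Of the 6 genes, Irx2 and Pou3f4 correlated with Gcg over the 21 samples at an adjusted p under 0.05. For Irx2 Pearson's r was 0.65 (permutation p = 0.0123, adjusted over 6 relations p = 0.0370) and Spearman's rho was 0.62 (permutation p = 0.00901, adjusted p = 0.0541). For Pou3f4 r was 0.56 (permutation p = 0.00996, adjusted p = 0.0370) and rho was 0.52 (permutation p = 0.0251, adjusted p = 0.0754). Without HFD replicates 7 and 1, the samples farthest from the median of Gcg, r fell to 0.37 for Irx2 and 0.48 for Pou3f4, and neither passed, so that the relations rest in part on those samples. Within replicates 1 to 4 r was 0.49 for Irx2 and 0.50 for Pou3f4, and within replicates 5 to 7 it was 0.86 and 0.50, and none passed in these 12 and 9 samples. Within RD, HFD and HFD-O304 samples alone, r was 0.51, 0.79 and 0.19 for Irx2 and 0.38, 0.65 and 0.84 for Pou3f4.

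The other 4 genes did not pass against Gcg over the 21 samples. The values of r and rho were 0.44 and 0.35 for Irx1 (permutation p = 0.0606 and 0.135, adjusted p = 0.121 and 0.270), 0.29 and 0.32 for Slc7a2 (permutation p = 0.379 and 0.233, adjusted p = 0.569 and 0.350), -0.10 and -0.15 for Ttr (permutation p = 0.785 and 0.577, adjusted p = 0.785 and 0.665) and -0.19 and -0.12 for Gc (permutation p = 0.584 and 0.665, adjusted p = 0.700 and 0.665). Without the 2 farthest samples r was 0.30 for Irx1, 0.27 for Slc7a2, -0.06 for Ttr and -0.16 for Gc. Within replicates 1 to 4 and 5 to 7, r was 0.25 and 0.70 for Irx1, -0.30 and 0.90 for Slc7a2, 0.63 and -0.58 for Ttr, and 0.25 and -0.75 for Gc, so that Slc7a2, Ttr and Gc changed sign between the sets. Within RD, HFD and HFD-O304 samples alone, r was 0.11, 0.72 and 0.17 for Irx1 and 0.63, 0.17 and 0.63 for Slc7a2. In the same order it was -0.31, -0.14 and 0.62 for Ttr and -0.47, -0.24 and 0.26 for Gc.

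All 21 pairs of the 7 genes were then examined, a step added after the relations with Gcg were seen. Over all pairs, 12 passed an adjusted p under 0.05, 8 with positive and 4 with negative r, and 15 of the 21 had the same sign of r in both library sets. The share of pairs that would pass among all genes was not computed, so these counts cannot be read as particular to the 7 genes. Ttr and Gc went together closely, with r = 0.91 and rho = 0.85 (permutation p = 1e-05, the smallest that the permutations can give, and 5.00e-05, adjusted over 21 pairs p = 0.000210 and 0.00105). Without the 2 samples farthest from the median of Ttr, r was 0.81. In the set of replicates 1 to 4 it was 0.64 and in that of replicates 5 to 7 it was 0.85. Irx2 and Pou3f4 gave r = 0.73 and rho = 0.67 (permutation p = 0.000450 and 0.00210, adjusted p = 0.00472 and 0.0220), 0.66 without the 2 samples farthest from the median of Irx2, and 0.78 and 0.71 within the sets. Irx2 and Gc went in opposite directions, with r = -0.72 and rho = -0.65 (permutation p = 0.00242 and 0.00596, adjusted p = 0.0169 and 0.0417), -0.52 without the 2 samples farthest from the median of Irx2, and -0.54 and -0.92 within the sets.

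The remaining negative pairs past the threshold were Slc7a2 and Gc (r = -0.68), Slc7a2 and Ttr (r = -0.66) and Irx1 and Gc (r = -0.54). For these, rho was -0.51, -0.49 and -0.41, and none of the 3 passed by rho (permutation, adjusted p = 0.108, 0.108 and 0.117). By rho, 4 of the 21 pairs passed, the 3 described above and Gcg with Irx2. In HFD islets the mean of Slc7a2, like those of Ttr and Gc above, was not the same in both library sets, with 10331 normalized counts in replicates 1 to 4 and 12163 in replicates 5 to 7.

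**Figure D4:**
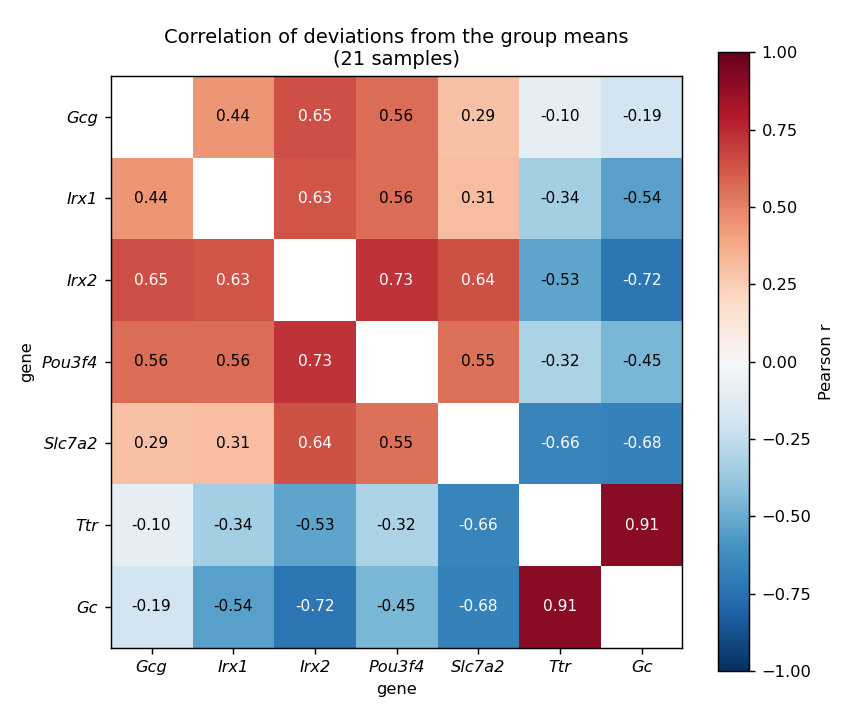
Pearson's r between the deviations of each pair of genes from the group means of log2(normalized count + 1), over 21 samples, from -1 (blue) to 1 (red). Gcg, Irx1, Irx2, Pou3f4 and Slc7a2 have positive r with each other (0.29 to 0.73), Ttr and Gc have 0.91 with each other, and each of the 10 values between the 2 sets of genes is negative. Of these negative values, 4 passed. The signs hold over the 21 samples pooled, and 15 of the 21 pairs kept theirs in both library sets. Within replicates 1 to 4, r was 0.63 for Gcg and Ttr, 0.25 for Gcg and Gc and -0.30 for Gcg and Slc7a2.

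**Figure D5:**
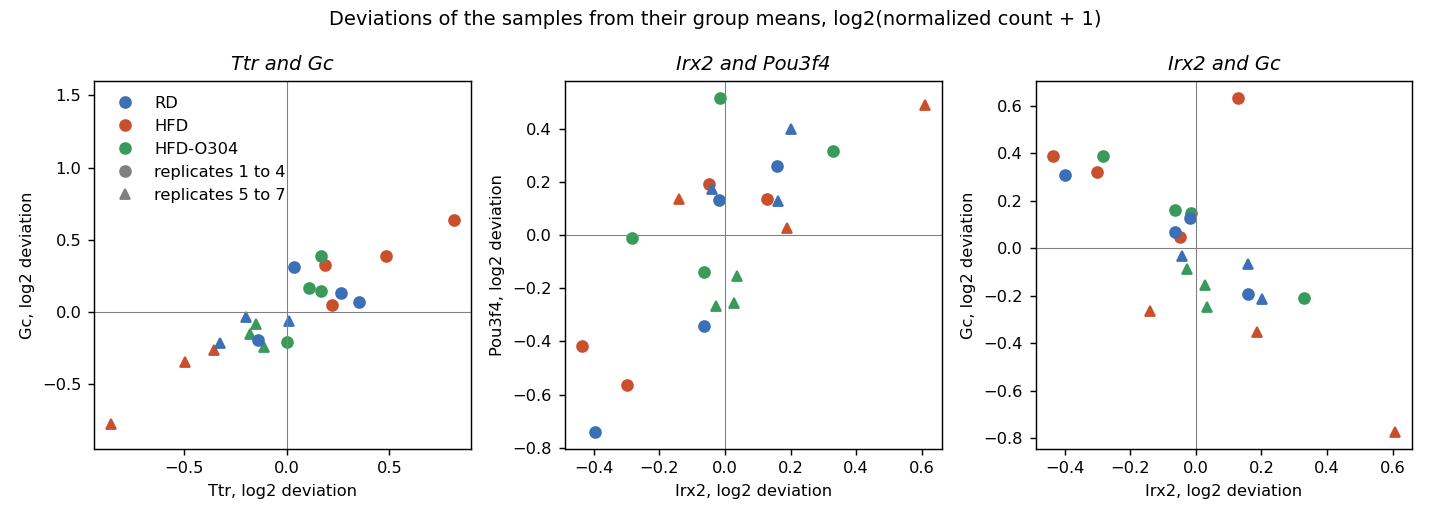
Deviations of the 21 samples from their group means, in log2(normalized count + 1), for 3 pairs of genes. Colours are diet groups, circles replicates 1 to 4 and triangles replicates 5 to 7. Gc rises with Ttr (r = 0.91), Pou3f4 rises with Irx2 (r = 0.73) and Gc falls with Irx2 (r = -0.72), and HFD replicate 7 is at the edge of each panel.

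A single sample stood at the edge of its group in all 7 genes. HFD replicate 7 had the highest HFD value of Gcg, Irx1, Irx2, Pou3f4 and Slc7a2 and the lowest of Ttr and Gc, each being the HFD value nearest to RD. It was also outside the range of the other 6 HFD samples in the summed level of 6 delta-cell markers (109611 normalized counts against 53377 to 81500), of 7 proliferation genes (2063 against 2951 to 6373), of 6 duct markers (9490 against 10366 to 14228), of 6 stellate-cell markers (10758 against 14319 to 19067) and of the 10 other alpha-cell genes (49563 against 50653 to 87062). The part of these in the results above was not tested. Without this sample all 7 genes passed both against RD and against HFD-O304.

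The genes whose deviations were most like those of each member were looked up among 13216 genes whose mean was 50 normalized counts or more, as a description over 21 samples. For Gcg they were AW551984 (r = 0.87), B230377A18Rik (0.86) and Edn3 (0.86), the gene of the vasoactive peptide endothelin 3. For Ttr they were Gpx3 (0.95), Prdx4 (0.95) and Ssr4 (0.95), the last 2 of which encode proteins of the endoplasmic reticulum, and for Gc they were Lgmn (0.90), Chgb (0.90) and Stmn1 (0.90), the genes of a lysosomal protease, of chromogranin B and of a microtubule-binding protein. For Irx2 they were Itpr1 (0.85), Adamts18 (0.84) and Prom2 (0.83), and for Irx1 Selenoh (0.86), Alkbh7 (0.83) and Mrpl36 (0.83). For Slc7a2 they were Rbbp6 (0.90), Pex7 (0.89) and Bend7 (0.89), and for Pou3f4 Sox5 (0.80), Zfp2 (0.80) and Scin (0.80). No gene was among the 3 of more than 1 member. These values share libraries and depth with the genes they are compared to.

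Markers of other islet cells moved with the diets too, and their part in the results was not tested. Of 6 delta-cell markers, 3 were lower under HFD as compared to RD and none higher: Sst, the somatostatin gene (-0.66 ± 0.15, edgeR, adjusted p = 0.00646), Rbp4 (-0.46 ± 0.09, adjusted p = 0.00161) and the ghrelin receptor gene Ghsr (-0.92 ± 0.19, adjusted p = 0.00309). By sign 4 of the 6 were lower and 2 higher, among the latter Pdyn, which did not pass by edgeR (0.82 ± 0.21, adjusted p = 0.0145). By DESeq2 Pdyn passed as higher (adjusted p = 0.00691). The summed level of the 6 was 93052 to 143192 normalized counts in RD, 53377 to 109611 in HFD and 87213 to 165209 in HFD-O304 samples. Sst made up most of this sum, with a mean of 100703 in RD samples beside 108978 for the 6. Between HFD-O304 and HFD islets 4 of the 6 were higher in the former and 1, Pdyn, lower. Of 2 PP-cell markers, Ppy had a log2 fold change of -0.26 ± 0.18 in HFD vs RD islets and Pyy one of -0.28 ± 0.14, and neither passed (adjusted p = 0.444 and 0.258). Their summed level was 115802 to 201677 in RD, 80526 to 166809 in HFD and 121253 to 253039 in HFD-O304 samples. Pyy was higher in HFD-O304 than in HFD islets (0.89 ± 0.14, adjusted p = 3.91e-05).

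Of 12 beta-cell markers, 1 was higher and 2 lower under HFD as compared to RD, with a median log2 fold change of -0.09. Iapp, the amylin gene, was higher (0.41 ± 0.09, edgeR, adjusted p = 0.00384), and the glucose transporter Slc2a2 (-0.68 ± 0.12, adjusted p = 0.000723) and the zinc transporter Slc30a8 (-0.36 ± 0.07, adjusted p = 0.00120) were lower. The insulin genes did not pass in HFD vs RD islets (Ins1 0.12 ± 0.05 and Ins2 0.09 ± 0.05, adjusted p = 0.175 and 0.332). The summed level of the 12 was 10320640 to 12478347 normalized counts in RD, 11911906 to 13912568 in HFD and 9515598 to 11259298 in HFD-O304 samples. Of 7 proliferation genes, 6 were higher under HFD as compared to RD and 6 lower under HFD-O304 as compared to HFD, among them Mki67 (1.68 ± 0.27 and -2.44 ± 0.28, edgeR, adjusted p = 0.000241 and 4.39e-07).

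Since Ttr and Gc encode plasma proteins, 6 liver markers were examined, of which 5 passed the filter on low counts. None of the 5 passed in HFD vs RD islets. Their summed level was 59.3 to 169 normalized counts in RD, 60.3 to 174 in HFD and 122 to 252 in HFD-O304 samples, below the lowest level of Gc in any sample, 2429. Alb, the albumin gene, was higher in HFD-O304 than in HFD islets (1.32 ± 0.33, edgeR, adjusted p = 0.00494), and was the 1 of the 5 that passed there. By sign 2 of the 5 were higher and 3 lower. Apoa1, an apolipoprotein gene, had log2 fold changes of -1.62 ± 0.51 there (edgeR, adjusted p = 0.0235) and 1.29 ± 0.49 in HFD vs RD islets (adjusted p = 0.112), the signs of Ttr and Gc, at group means of 4.94 to 14.5 normalized counts. The part of liver transcripts in the results was not tested. None of 13 acinar, 6 duct, 6 endothelial and 6 macrophage markers passed by edgeR in HFD vs RD islets, while 1 of 6 stellate markers did (Rgs5, 0.49 ± 0.12, adjusted p = 0.00752). By DESeq2 the duct markers Krt7 and Spp1 (adjusted p = 0.00509 for both), Cdh5 of endothelium (0.00695) and Cd68 of macrophages (0.00151) passed as higher. By sign all 6 macrophage and all 6 stellate markers were higher. Acinar markers varied widely in every group, with a summed level of 3995 to 337525 in RD, 1059 to 256131 in HFD and 743 to 111309 in HFD-O304 samples. The corresponding ranges were 8009 to 10419, 9490 to 14228 and 9167 to 11543 for duct, 17041 to 20757, 15879 to 23579 and 13190 to 20319 for endothelial, 2188 to 2714, 1980 to 2950 and 2233 to 2744 for macrophage, and 8883 to 12509, 10758 to 19067 and 5929 to 10069 for stellate markers. In HFD-O304 vs RD islets 1 duct marker was higher, Krt19 (1.05 ± 0.19, edgeR, adjusted p = 0.00164). There 1 endothelial marker, Pecam1 (-0.33 ± 0.07, adjusted p = 0.00693), and 1 stellate marker were lower. In HFD-O304 vs HFD islets 4 duct and 1 macrophage markers were higher, and 2 endothelial and 4 stellate markers were lower. Each marker tested was above 0 in each group's summed counts.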

How the data were processed

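RNA of 21 islet samples was sequenced as paired ends. For alignment the authors used STAR and the mouse build GRCm38, and the deposited values are raw counts (read pairs assigned to each gene). The versions of STAR and FastQC are not given in the sources used here. STAR leaves out pairs that match several places or genes. The count for the strand of the gene was used, since it was 28.8 to 36.3 times that of the other strand, and the 18.5% to 24.9% of read pairs on lines that name no gene were left out. Genes with at least 10 pairs over all samples (27229 of 55536) entered edgeR 4.0.16 (TMM, factors 0.907 to 1.07, quasi-likelihood fit of the 3 groups together, R 4.3.3). A Benjamini-Hochberg adjusted p under 0.01 was taken as a call, and every adjusted p of a single gene is edgeR's unless another test is named. To normalize, each count was divided by the sample's DESeq2 1.42.0 size factor (0.383 to 1.44). Counts limit precision most for Pou3f4, with 17 to 132 pairs per sample.

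Ratios and correlations used log2(normalized count + 1), in Python 3.11.15 with numpy 2.4.6, pandas 2.3.3, scipy 1.17.1 and matplotlib 3.10.9. Ratios were called at an adjusted p under 0.05. Correlations used deviations from group means and 100000 permutations within groups. The edgeR and DESeq2 tests of fold changes were checked on simulated counts. Replicates of a group differed beyond sampling noise (chi-square per gene 7.35 to 90.1 over 63 pairs), and none was counted as a repeat. Groups follow the sample titles.

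The members and gene lists were chosen with earlier results of these data known. Named were the 7 members, up to 4 genes with the smallest p per list and comparison among those called, and the 3 genes most like each member. Other genes named to complete a short count, genes named for a call by DESeq2 alone, Pcsk2, Apoa1 and the insulin and PP-cell hormone genes were chosen after their values were seen. Alternatives covered the test, normalization, filter, strand, threshold, which samples were fitted, library set, replicate block, pseudocount, reference gene and each sample left out. Some genes of the other alpha-cell list are counted but not reported here by name. ChIP-seq was not analysed here.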

Additional observations from a re-analysis of the deposited data

How the results depend on the processing

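The directions of all 7 genes held in every alternative tried for HFD vs RD and for HFD-O304 vs HFD islets. The number called in HFD vs RD islets was 4 to 7 (main 6), with 5 when only these groups were fitted, where Ttr missed the threshold (0.85 ± 0.19, edgeR, adjusted p = 0.0104), and 7 at an adjusted p under 0.05 or without HFD replicate 7. Between HFD-O304 and HFD islets it was 6 or 7. In HFD-O304 vs RD islets it was 0 except for 1, Gc, when only these 2 groups were fitted, with the library set as a covariate, in replicates 5 to 7 alone and with the replicate block (-0.53 ± 0.11, adjusted p = 0.00562). The cause was not tested.

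Same-numbered samples correlated above 0.1 in 15 of 21 pairs (-0.54 to 0.69, mean 0.21) and 7 of 21 correlated best with their own number. These values do not settle whether the numbers pair samples, and the main tests did not pair them. With the replicate block 1577 genes in all were called in the first comparison (963 without it) and 543 in the second (356 without it), and the correlation of Ttr with Gcg was 0.0076 (main -0.10). The block changed no other call. DESeq2 called 1758 and 727, the fit with the library set 1611 and 543, and the fit of HFD and RD alone 627. Replicates 1 to 4 gave 563, 85 and 2001 in the 3 comparisons and replicates 5 to 7 gave 307, 228 and 1456, with fewer samples, and a threshold of 0.05 gave 2148, 785 and 5150. Leaving out each sample gave 589 (without RD replicate 7) to 1594 (without HFD replicate 7) in the first comparison, 221 (without RD replicate 3) to 423 in the second and 2643 to 3578 in the third. The first also moved by over 1.5 times without HFD replicate 4 (599), and the second without HFD-O304 replicate 1 (235) or 5 (225).

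The number of ratios to Gcg that differed, 2 in each comparison, was 0 in each library set, where so few samples a group leave the exact test little or no room to pass the adjustment, so these counts say nothing about stability. In HFD vs RD islets the difference was 2.12 for Ttr and 2.47 for Gc in replicates 1 to 4, and 1.403 and 1.82 in replicates 5 to 7 (main 1.82 and 2.19). With Ttr as the reference it was 6, 5 and 6: Gcg, Irx1, Irx2, Slc7a2 and Pou3f4 all differed relative to Ttr in the 3 comparisons, and Gc did in all but HFD-O304 vs RD islets. It was 2 to 3 with each sample left out. Differences near 0 changed sign: Irx2 to Gcg in HFD-O304 vs RD islets was -0.030 in replicates 1 to 4 and ran from -0.0044 to 0.11 with each sample left out, Slc7a2 to Gcg was 0.076 in replicates 5 to 7, and Pou3f4 to Gcg in HFD vs RD islets ran from -0.011 to 0.17.

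The number of genes correlated with Gcg, 2, was 0 by Spearman's rho, without the 2 farthest samples and in each library set. It was 0 to 3 with each sample left out, with 0 without RD replicate 4 or 5, HFD replicate 3, 6 or 7, or HFD-O304 replicate 1 or 2. In replicates 1 to 4 r was 0.63 for Ttr, -0.30 for Slc7a2 and 0.25 for Gc, each of the opposite sign to the main value. With each sample left out r ran from -0.46 to 0.34 for Ttr, from -0.019 to 0.54 for Slc7a2 and from -0.52 to 0.22 for Gc, the ends being without HFD replicates 1 and 7.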
